A study of Rattus norvegicus with 48 samples.

Results

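The change of circulating miRNAs in the first week after a calvarial defect was examined in 12 male rats, whose plasma was sequenced before surgery (baseline, week 0) and again at week 1. These 24 samples, taken as the 12 baseline and the 12 week 1 samples of the same animals, are part of a series of 48 samples that also holds weeks 4 and 8. The sources name both Wistar and Sprague-Dawley as the strain, and give an age of 12 weeks at surgery. At baseline the animals carried no defect, while every week 1 sample came from a rat with 1 central circular defect of the skull vault, from which the periosteum had been removed. The defect had been left empty or filled with a CHA scaffold, a CHA scaffold carrying a plasmid for BMP2 and miR-590-5p, or a CHA scaffold loaded with EVs of Wharton's jelly mesenchymal stromal cells. The treatment of each rat was not mapped here, so the 4 treatments were pooled. The study had chosen the 6 best and the 6 worst healing rats by microCT at the end of the experiment, here called strong and weak regenerators, and both kinds entered the comparison. All rats were bled from the tail vein under sevoflurane. Those of week 1 had in addition received anaesthesia, analgesics, the antibiotic enrofloxacin and an operation. No unoperated rats of the same age were among the samples, so surgery, drugs, repeated bleeding and a week of growth cannot be told apart as sources of a change.

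MiRNAs are short RNAs that guide Argonaute proteins to messenger RNAs, chiefly through the seed, the bases near their 5′ end. Each hairpin precursor can yield a 5p and a 3p arm, and hairpins that lie close together are often cut from 1 common transcript. Plasma miRNAs travel in vesicles, in protein complexes and in lipoproteins, and come from blood cells, vessels, liver and many other tissues. A plasma level therefore reflects release, clearance and the number of cells that release, which cannot be told apart in these samples, and since values are shares of all miRNA reads, a share also moves when others do.

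Mature sequences were taken from RefSeq (build GRCr8), which matched 582 of the 645 miRNAs counted, 379 of the 415 tested and 68 of the 79 called. Capitals mark the seed (bases 2 to 8), and the rest is in lower case. The first set shows both arms of miR-322, miR-351 and miR-503, hairpins of the miR-322 cluster on chromosome X that fell, cut from the minus strand between chrX:137720933-137726241, and beside them the tested miRNAs from other chromosomes whose RefSeq sequence shares a seed with them.
miR-322-3p: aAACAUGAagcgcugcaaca
miR-503-3p: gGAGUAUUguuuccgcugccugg
miR-351-3p: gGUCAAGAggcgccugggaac
miR-503-5p: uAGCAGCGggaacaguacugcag
miR-322-5p: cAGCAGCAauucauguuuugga
miR-15b-5p: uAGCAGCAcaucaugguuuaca
miR-16-5p: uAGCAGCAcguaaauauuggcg
miR-195-5p: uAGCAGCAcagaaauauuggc
miR-497-5p: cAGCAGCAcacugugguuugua
miR-351-5p: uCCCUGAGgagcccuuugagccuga
miR-125a-5p: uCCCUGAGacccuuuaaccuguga
miR-125b-5p: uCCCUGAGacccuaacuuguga
The second set shows miRNAs known from cartilage, which fell: both arms of miR-140 (chr19:52375314-52375373, plus strand) and the 3p arm of miR-455 (chr5:81704881-81704902, plus strand).
miR-140-3p: uACCACAGgguagaaccacgg
miR-140-5p: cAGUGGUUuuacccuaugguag
miR-455-3p: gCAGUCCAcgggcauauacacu
The third set shows miRNAs that rose and were abundant or rose in all rats: miR-451-5p (chr10:63459585-63459606, plus strand), miR-93-5p and miR-25-3p of 1 cluster on chromosome 12, and miR-92a-3p, which has the same seed as miR-25-3p.
miR-451-5p: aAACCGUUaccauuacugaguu
miR-93-5p: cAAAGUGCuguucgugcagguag
miR-25-3p: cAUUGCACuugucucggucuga
miR-92a-3p: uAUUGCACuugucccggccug

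At week 1, 32 miRNAs were upregulated and 47 were downregulated against baseline, of 415 tested. That is 19.0% of the tested miRNAs, with 7.71% higher and 11.3% lower. The levels are given as RPM, reads per 1000000 miRNA reads, and the test was edgeR's quasi-likelihood test on the counts with the rat as a block, TMM normalization and a false discovery rate (FDR) under 0.05. An unadjusted p under 0.05 was found for 127 of the tested miRNAs. The decreases were larger and more uniform than the increases: the called log2 fold changes ran from -2.19 to -0.40 with a median of -0.77 on the lower side, and from 0.30 to 1.18 with a median of 0.42 on the higher side. A change of more than 2-fold was seen for 11 downregulated and 3 upregulated miRNAs. Of the downregulated miRNAs, 13 were lower in all 12 rats, whereas 3 of the upregulated ones, miR-301a-3p, miR-93-5p and miR-505-3p, were higher in all 12. The median log2 fold change of all tested miRNAs was -0.05.

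The miRNAs called higher were mostly abundant and those called lower mostly of middle abundance. The median of their mean levels was 1068 RPM for the higher and 177 RPM for the lower ones, against 56.6 RPM for all tested. Together, the upregulated miRNAs took 31.5% ± 3.77 of the reads at baseline and 38.8% ± 6.05 at week 1, and the downregulated ones 16.2% ± 2.71 and 9.82% ± 1.76 (SD, n = 12). The direction of the smaller changes depends on the scale, as the 40.5% of calls that were higher became 13.0% when counts were scaled by library size alone and 2.99% when they were scaled by the spike-in UniSp2. On those scales the 310 miRNAs with at least 10 RPM had a median change of -0.14 and -0.33 (log2), against -0.01 with TMM. The higher calls also rested on single rats, since 8 remained by number without rat 7, 10 without rat 23, 12 without rat 17, 16 without rat 25 and 17 without rat 6. All calls together numbered 47 without rat 23.

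**Figure D1:**
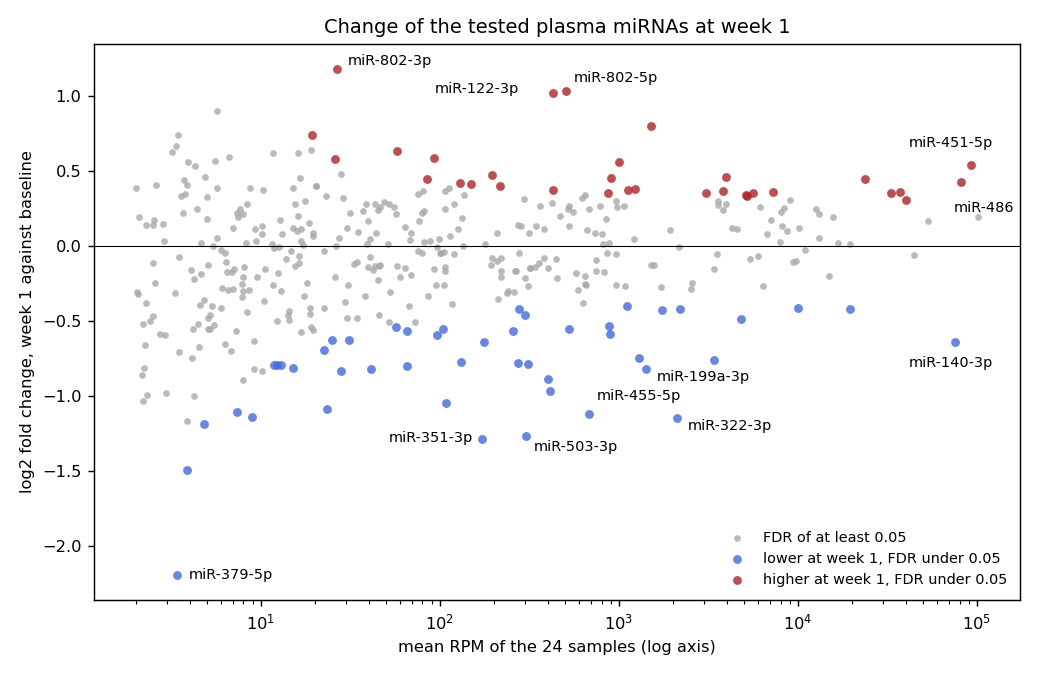
Log2 fold change at week 1 against baseline (y axis) by mean RPM of the 24 samples (log x axis) for the 415 tested miRNAs, each point 1 miRNA and coloured by its call. The 47 blue points reach down to -2.19 at low levels, while the 32 red points reach 1.18 and hold the most abundant called miRNAs, such as miR-451-5p and miR-486 at the right edge.

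The total miRNA count was between 482189 and 1360663 at baseline and between 421685 and 1586398 at week 1 (exact sign-flip permutation test over 12 rats, two-sided, p = 0.629, adjusted p = 0.629 over 4 measures). More than 10 reads were found for a mean of 300.1 miRNAs at baseline and 286 at week 1, with fewer in 11 of 12 rats (same exact test, p = 0.155, adjusted p = 0.275). After thinning to equal depth the difference was -7.0 miRNAs (same exact test, unadjusted p = 0.0254). UniSp2 gave a median of 34.0 reads per 1000 miRNA reads at baseline and 39.4 at week 1, higher in 8 of 12 rats (same exact test, p = 0.0483, adjusted p = 0.193). The ratio of miR-451-5p, a miRNA of red blood cells, to miR-23a-3p, which is used as a stable partner, measures red blood cell RNA in plasma. It lay between 1.68 and 7.62 with a median of 4.93 at baseline and between 2.41 and 12.8 with a median of 6.70 at week 1. This red blood cell ratio was higher in 11 of 12 rats, by a mean of 0.52 on the log2 scale (exact sign-flip permutation test, p = 0.0239). The call did not hold with miR-16-5p in place of miR-451-5p, where the difference was 0.18 (same exact test, p = 0.392), or with unpaired labels (permutation test, p = 0.0581). Rat 21 was the exception, with a change of -1.18.

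**Figure D2:**
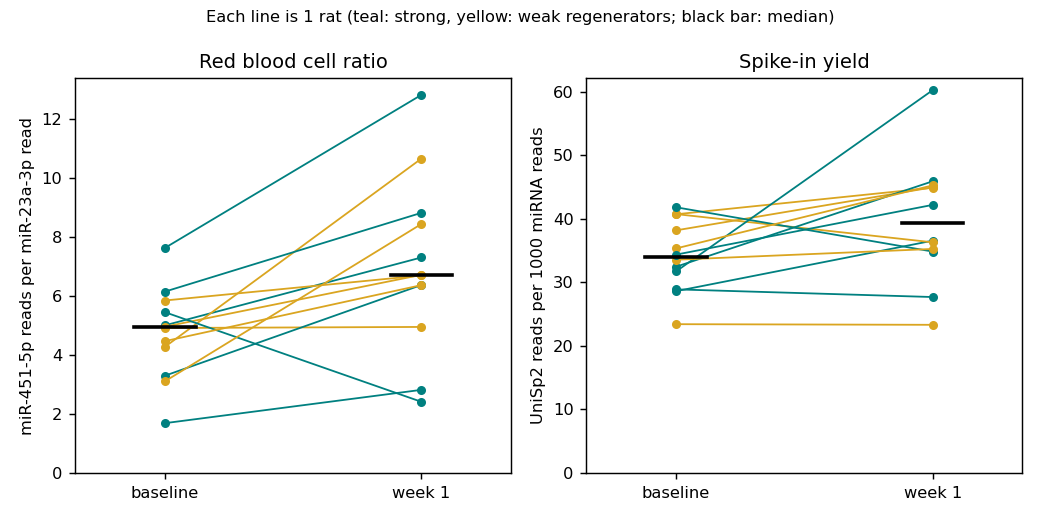
Ratio of miR-451-5p to miR-23a-3p reads (left) and UniSp2 reads per 1000 miRNA reads (right) at baseline and week 1, with 1 line per rat coloured by regeneration group and black bars at the medians. The ratio goes up in 11 rats, and the spike-in share in 8, with rat 21 reaching 60.3 at week 1.

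The miR-322 cluster was downregulated as a whole. In RefSeq its 6 hairpins, miR-322 (known in humans as miR-424), miR-503, miR-351, miR-542, miR-450a and miR-450b, lie within 5.309 kb, and its miRNAs are known as regulators of the cell cycle and of muscle and bone cell differentiation. All 11 tested of its 12 listed arms were downregulated, beside 11.3% of all tested miRNAs. Their median log2 fold change was -0.82, against -0.05 over all tested miRNAs. The remaining arm, miR-450a-3p, had at most 2.99 RPM in any sample and was not tested. The summed level of the cluster was between 3987 and 8414 RPM with a median of 6503 RPM at baseline, and between 2052 and 3980.2 RPM with a median of 3191 RPM at week 1. The sum was lower at week 1 in all 12 rats, and every week 1 sum lay below every baseline sum.

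The main product of the cluster in plasma was miR-322-3p. Its level ranged from 1739 to 4369.9 RPM with a median of 2863 RPM at baseline and from 772 to 1664 RPM with a median of 1119 RPM at week 1. These ranges did not overlap. The log2 fold change was -1.14 ± 0.13 (SE, FDR = 6.33e-12), a 2.21-fold lower level. Its partner arm miR-322-5p went from 245 to 425 RPM (median 357) down to 119 to 242 RPM (median 198), again without overlap, with a log2 fold change of -0.78 ± 0.15 (FDR = 1.14e-05). No other tested miRNA had groups that did not overlap.

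MiR-503 and miR-351 showed the largest relative decreases of the cluster. For miR-503-3p, 225 to 612 RPM (median 465) at baseline became 101 to 248 RPM (median 172), and 11 of the 12 week 1 samples lay below the lowest baseline sample. The log2 fold change was -1.27 ± 0.15 (FDR = 7.47e-12). MiR-503-5p, with the seed AGCAGCG, fell by 1.05 ± 0.16 on the log2 scale (FDR = 7.85e-08), from a median of 140.1 to 61.8 RPM. MiR-351-3p had 93.8 to 357 RPM (median 256) at baseline and 57.9 to 180.2 RPM (median 89.8) at week 1, and a log2 fold change of -1.28 ± 0.16 (FDR = 8.25e-11). MiR-351-5p went from a median of 529.5 RPM to 265 RPM (log2 fold change -0.96 ± 0.15, FDR = 7.85e-08), and here too 11 week 1 samples were below all baseline samples. All of these arms were lower in each of the 12 rats.

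The hairpins at the other end of the cluster, miR-542, miR-450b and miR-450a, had log2 fold changes between -0.82 and -0.40. MiR-542-5p (-0.80 ± 0.18, FDR = 0.000384), miR-450b-3p (-0.82 ± 0.20, FDR = 0.0011) and miR-542-3p (-0.64 ± 0.15, FDR = 0.000957) were lower in 11 of 12 rats. MiR-450b-5p was lower in 10 rats (-0.62 ± 0.22, FDR = 0.0374). MiR-450a-5p, the second most abundant arm of the cluster, was lower in 8 rats only and had broadly overlapping groups, from 534 to 2559 RPM at baseline and from 539 to 1409 RPM at week 1 (-0.40 ± 0.14, FDR = 0.0405). The number of downregulated arms was between 7 and 11 under the other settings and between 9 and 11 with any 1 rat left out. With the red blood cell ratio as a covariate it was 7.

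MiRNAs known from cartilage fell next to them. MiR-140, which is located in an intron of Wwp2 and is enriched in chondrocytes, and miR-455, located in an intron of the cartilage collagen gene Col27a1, are both needed for normal cartilage. All 4 of their arms were downregulated, beside 11.3% of all tested miRNAs, with a median log2 fold change of -0.82. This count was 4 under every setting and with any rat left out. They were abundant, since their summed reads made up a median of 10.6% of all miRNA reads at baseline and 5.80% at week 1. The share was lower in all 12 rats. Which tissue or cells released these reads into plasma was not tested.

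The bulk of these reads belonged to miR-140-3p. Its level lay between 61288 and 113974 RPM with a median of 99573 RPM at baseline, and between 41208 and 75472 RPM with a median of 55006 RPM at week 1. In 9 of the 12 rats the week 1 level was below the lowest baseline level of any rat. The log2 fold change was -0.64 ± 0.10 (FDR = 2.08e-07), and the change was smallest in rat 21, at -0.04. The rarer arm miR-140-5p fell by 0.89 ± 0.14 on the log2 scale (FDR = 2.32e-07), from 339 to 879.5 RPM (median 490.2) to between 191 and 488 RPM (median 246). MiR-455-5p changed more than its partner. It went from 531 to 1318 RPM (median 976) down to 241 to 532 RPM (median 392), and in 11 rats the week 1 level was below every baseline level. The ranges met only at their ends, and the log2 fold change was -1.12 ± 0.14 (FDR = 3.85e-11). MiR-455-3p fell from a median of 4477 to 2212 RPM (-0.76 ± 0.13, FDR = 5.53e-07).

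**Figure D3:**
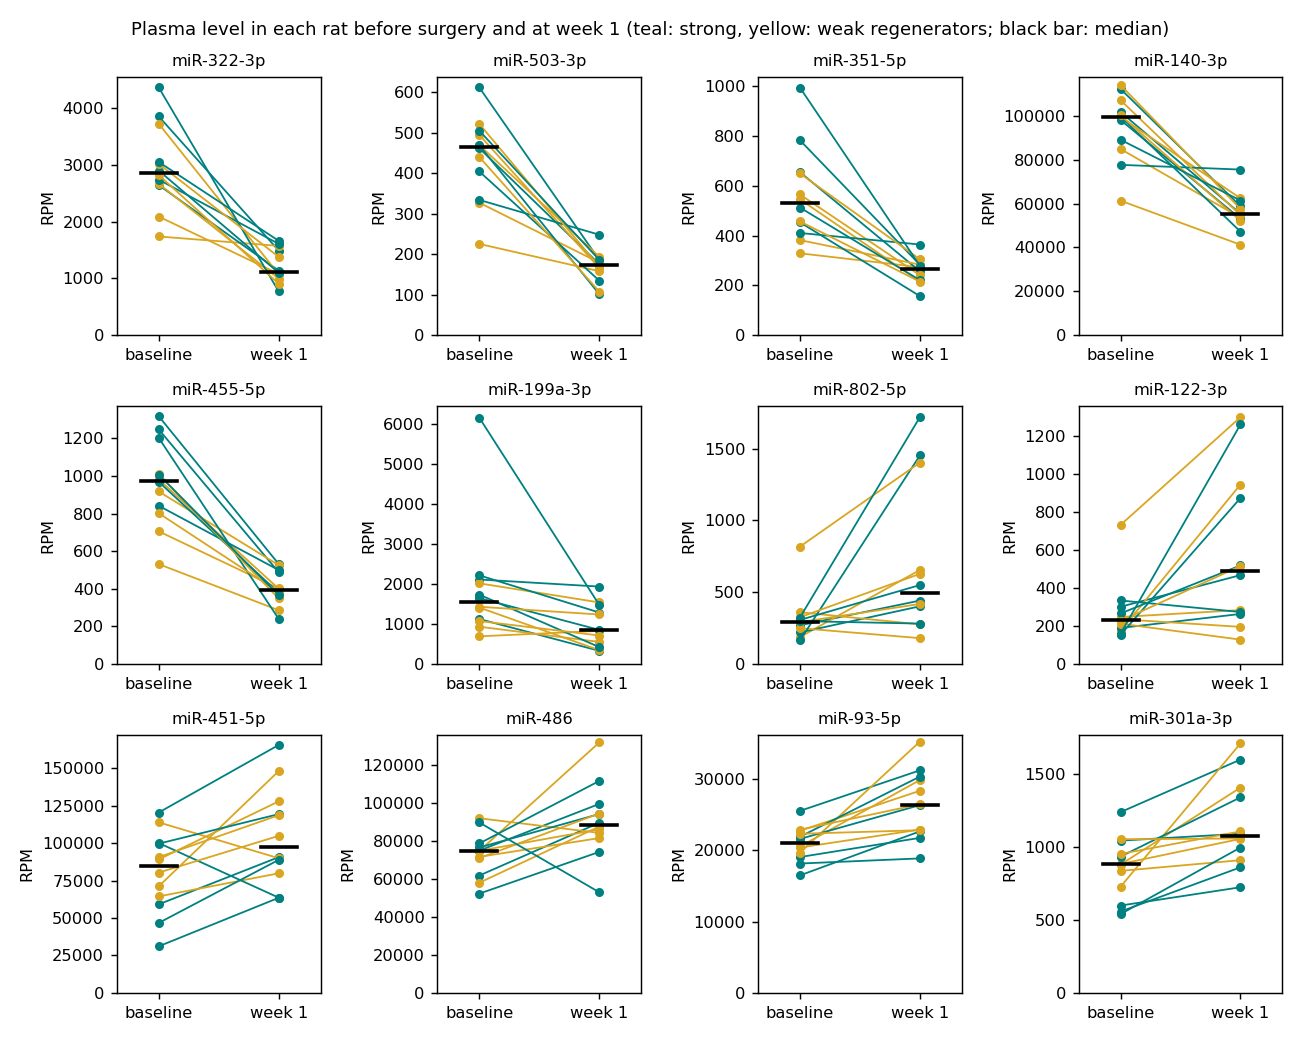
Level in RPM (y axes from 0) of 12 called miRNAs at baseline and week 1, with 1 line per rat coloured by regeneration group and black bars at the medians. Lines of miR-322-3p, miR-503-3p, miR-351-5p, miR-140-3p and miR-455-5p all slope down, while miR-802-5p and miR-122-3p climb steeply in a few rats and fall in 3, and miR-451-5p falls in 2.

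Markers of the liver rose most, but not in every rat. MiR-122 is the dominant miRNA of hepatocytes, and miR-802 is known from liver and kidney. Of the 8 tested liver miRNAs, 5 were upregulated and none downregulated (median log2 fold change 0.69), beside 7.71% higher among all tested miRNAs, and the 4 with the largest changes of all increases were both arms of miR-802 and of miR-122. Their summed level was higher in only 6 of 12 rats, with a median of 10401 RPM at baseline and 10856 RPM at week 1. The number upregulated was 3 without rat 25, with limma-voom, without the block, on 48 samples and with the red blood cell ratio as a covariate. The median of the list stayed positive under each scaling, at 0.37 with UniSp2.

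MiR-802-5p ranged from 164 to 818 RPM with a median of 295 RPM at baseline and from 180.2 to 1719.6 RPM with a median of 496 RPM at week 1. The groups overlapped, as 3 week 1 samples lay above all baseline samples while 3 rats had a lower level than before. The log2 fold change was 1.03 ± 0.17 (FDR = 2.91e-07). MiR-802-3p, at a median of 11.0 RPM before and 31.1 RPM after surgery, had the highest fitted change, 1.18 ± 0.25 (FDR = 9.22e-05), and was higher in 9 rats. MiR-122-3p went from a median of 231 RPM (153 to 730.2) to 491 RPM (128 to 1297), with a log2 fold change of 1.02 ± 0.18 (FDR = 1.31e-06). Its sister arm miR-122-5p went from a median of 719.9 to 1938 RPM and was higher in 8 rats (0.80 ± 0.18, FDR = 0.000436), but was not called by DESeq2, by limma-voom, with the version 4 method of edgeR, after filterByExpr, without the block on the 24 samples, with the block on 48 samples, or without rat 25.

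MiR-122-3p and miR-802-5p had their largest rises in rats 29, 21 and 3, and miR-122-5p in rats 21, 3 and 26. MiR-122-3p rose by 2.98 on the log2 scale in rat 29, by 2.51 in rat 21 and by 2.43 in rat 3, and miR-802-5p by 2.41, 3.15 and 1.80, respectively. In rats 6, 7 and 17 all 4 arms of miR-122 and miR-802 were lower at week 1. The remaining liver miRNAs were less affected. MiR-192-3p was upregulated (0.58 ± 0.22, FDR = 0.0481), but was not called in 8 of 13 alternative settings. Its call was also lost without rat 2, 3, 7, 16, 17, 21, 23, 25 or 29. The abundant partner miR-192-5p, also made in gut and kidney, had a median of 9115 RPM at baseline and 8150.4 RPM at week 1 (0.02 ± 0.13, FDR = 0.912).

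Red blood cell miRNAs were higher together with the ratio described above. MiR-451 and miR-144 come from 1 transcript that is switched on during red cell maturation, and miR-486 and miR-16 are abundant in the same cells. Of the 7 listed and tested, 4 were upregulated, beside 7.71% of all tested miRNAs, and none was downregulated. Their median log2 fold change was 0.46. Their sum took a median of 26.1% of reads at baseline and 30.9% at week 1, and was higher in 9 of 12 rats. No defining marker was at 0, as miR-451-5p was among the most abundant miRNAs at both times. The number upregulated was 2 without rat 7 or rat 23, 2 when scaled by library size and 0 when scaled by UniSp2, where the median of the list was 0.14. It was 2 without the block on the 24 samples and 0 with the red blood cell ratio as a covariate, which holds a member of the list.

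MiR-451-5p itself ranged from 31117 to 120479 RPM with a median of 84758 RPM at baseline and from 63520.0 to 165594 RPM with a median of 97772 RPM at week 1. It was higher in 10 rats, and the groups overlapped over most of their range (0.54 ± 0.11, FDR = 3.03e-05). MiR-486 went from a median of 74916 to 88712 RPM (0.43 ± 0.11, FDR = 0.00128), and miR-144-5p from 794 to 985 RPM (0.46 ± 0.14, FDR = 0.0134). MiR-16-5p, the most abundant miRNA of the list at baseline, had a median of 99779 RPM before and 104979 RPM after surgery and was not called (0.19 ± 0.10, FDR = 0.173).

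When the red blood cell ratio was entered as a covariate, 14 miRNAs were called higher and 20 lower. That fit tested 223 miRNAs, against 415 without the covariate. Since the covariate contains miR-451-5p itself, a smaller change of this miRNA there (0.20, FDR = 0.211) follows from its construction. Among the 12 largest increases that were seen in 10 or more rats, miR-93-5p (0.38) and miR-298-5p (0.49) were called in that fit. Of those not called, miR-144-5p had 0.02, miR-15b-3p 0.14, miR-16-3p 0.40, miR-19a-5p 0.45, miR-301a-3p 0.41, miR-486 0.33, miR-421-3p 0.36 and miR-505-3p 0.31 on the log2 scale, and miR-301b-3p (0.84) was not among those tested there. Among the liver miRNAs, miR-802-5p, miR-122-3p and miR-122-5p were called higher there. The part of the red blood cell signal in each increase was not tested.

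The miR-17-92 family and its paralogues are known for promoting proliferation in haematopoietic and other cells. Of 23 tested members, 5 were upregulated, beside 7.71% of all tested miRNAs, and none was downregulated. Their median log2 fold change was 0.24, and turned to -0.07 when scaled by UniSp2, where none was higher and 1 was lower. By library size 2 were higher and 1 was lower, and with the red blood cell ratio as a covariate 3 were higher. Their summed level was higher in all 12 rats, with a median of 133125 RPM at baseline and 158417 RPM at week 1. The count was 1 without rat 7, 2 without rat 17 or rat 23, and 3 without rat 25 or rat 6. MiR-93-5p, from the miR-106b cluster on chromosome 12, was higher in each rat, from 16463 to 25500.4 RPM (median 21037) at baseline and from 18845 to 35209 RPM (median 26372) at week 1. Its 7 highest week 1 samples exceeded all baseline samples (0.45 ± 0.11, FDR = 0.0011). MiR-25-3p of the same cluster exceeded all baseline samples in 9 rats (0.36 ± 0.11, FDR = 0.00898).

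The other called members of this family were miR-19b-3p, miR-92a-3p and miR-19a-5p. MiR-19b-3p (0.35 ± 0.11, FDR = 0.0117) and miR-92a-3p (0.30 ± 0.11, FDR = 0.0324) were higher in 11 rats each, but the log2 fold change of miR-92a-3p was -0.02 when scaled by UniSp2. The rare arm miR-19a-5p rose from a median of 49.6 to 61.9 RPM (0.63 ± 0.18, FDR = 0.0063). On the polycistron of chromosome 15 (chr15:98587848-98588632), 3 of 11 tested arms were upregulated, beside 7.71% of all tested miRNAs, and 10 had a positive change. However, miR-19b-3p and miR-92a-3p also have a hairpin on chromosome X, and their source cannot be told apart.

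The family of miR-130 and miR-301 shares the seed AGUGCAA in miR-301b-3p and miR-130 members. Of its 5 tested miRNAs, 2 were upregulated, beside 7.71% of all tested. MiR-301a-3p was higher in all 12 rats, from 541 to 1241 RPM (median 883) to between 725 and 1712 RPM (median 1076), with overlapping groups (0.56 ± 0.13, FDR = 0.00094). MiR-301b-3p rose in median from 13.2 to 26.9 RPM (0.74 ± 0.24, FDR = 0.0215). The family's median was 0.20, and -0.12 when scaled by UniSp2. The number upregulated was 1 without rat 7 or rat 23, and 0 with UniSp2 or with the red blood cell ratio as a covariate. Also among the 12 largest increases seen in 10 or more rats were 5 further miRNAs. MiR-505-3p, higher in each rat, rose by 0.38 ± 0.13 (FDR = 0.0283), miR-421-3p by 0.40 ± 0.15 (FDR = 0.0412) and miR-298-5p by 0.42 ± 0.15 (FDR = 0.0417). MiR-16-3p rose by 0.58 ± 0.17 (FDR = 0.00629) and miR-15b-3p by 0.47 ± 0.15 (FDR = 0.0204). None of the 5 was called with UniSp2 or without rat 7, and by library size only miR-16-3p was. Of the 12 fits with 1 rat left out, 8 lost the call of miR-298-5p, 6 that of miR-421-3p and 5 that of miR-505-3p. For miR-15b-3p it was lost in 4 and for miR-16-3p in 1.

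**Figure D4:**
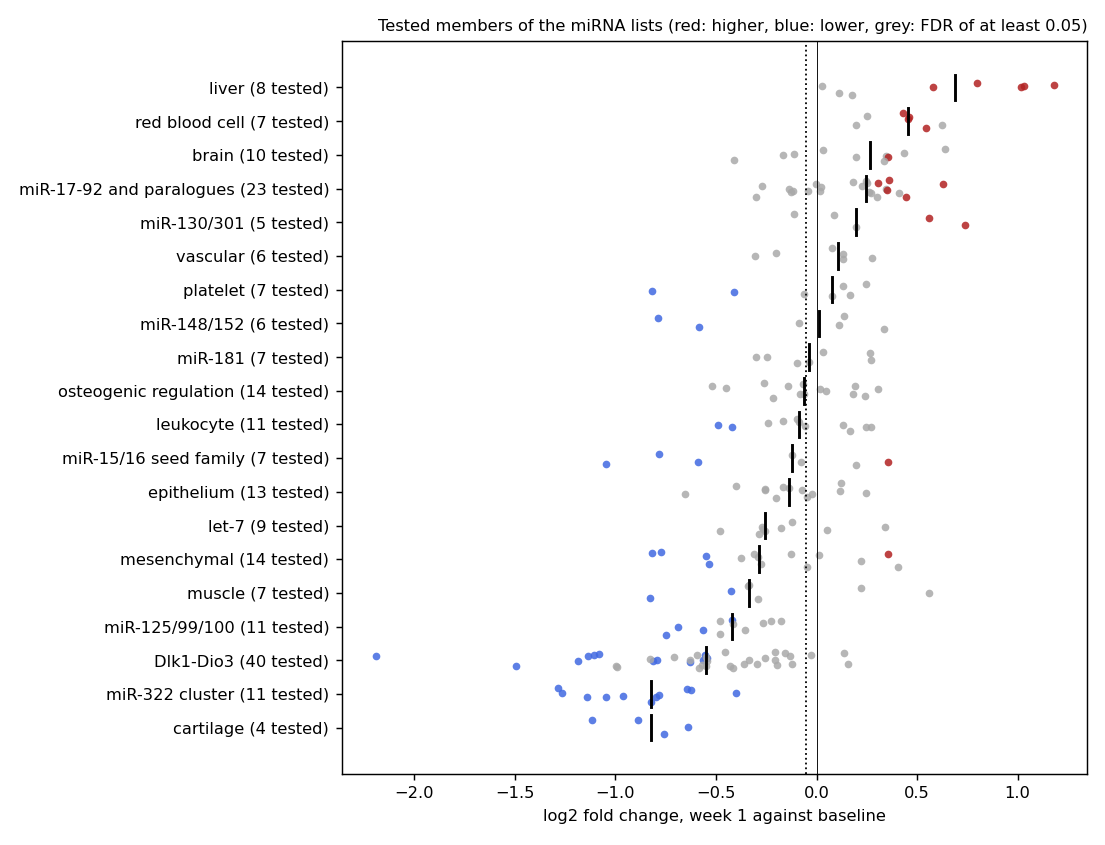
Log2 fold change at week 1 against baseline (x axis) of the tested members of 20 miRNA lists (rows, sorted by median), each point 1 miRNA coloured by its call, with black bars at the list medians and a dotted line at -0.05, the median of all tested. The miR-322 cluster and cartilage lists sit at the left with all points blue, and the liver and red blood cell lists at the right.

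Of the 7 platelet miRNAs, which include miR-223-3p and miR-126a-3p, 2 were downregulated and none was upregulated (median 0.08, and -0.05 by library size), beside 11.3% lower among all tested miRNAs. These were miR-24-3p, lower in all 12 rats (-0.41 ± 0.12, FDR = 0.00611), and miR-199a-3p, which is made by fibroblasts and other stromal cells as well. MiR-199a-3p had 692 to 6155 RPM (median 1539) at baseline and 329 to 1935 RPM (median 839.9) at week 1, and was lower in 11 rats (-0.82 ± 0.15, FDR = 2.68e-06). Among the 11 tested leukocyte miRNAs 2 were downregulated, a share near the 11.3% of all tested. MiR-150-5p of mature lymphocytes went from a median of 21124 to 14230.1 RPM (-0.42 ± 0.12, FDR = 0.00485), and miR-146a-5p, a feedback inhibitor of NF-κB signalling, from 5120.1 to 3269.8 RPM (-0.49 ± 0.13, FDR = 0.00239), each lower in 10 rats. The myeloid miR-223-3p (0.25 ± 0.12, FDR = 0.135) and the activation-induced miR-155-5p (0.13 ± 0.14, FDR = 0.577) were not called. Both leukocyte calls were lost in the fits without the block and in the blocked fit on 48 samples, and that of miR-150-5p with the red blood cell ratio as a covariate. No platelet miRNA was called in the blocked fit on 48 samples, and 1 was called lower in those without the block. Without rat 3, miR-223-3p, which is on both the platelet and the leukocyte list, was called higher.

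Muscle miRNAs were variable between rats. Of 13 listed, 7 were tested and 2 were downregulated, beside 11.3% lower among all tested miRNAs. MiR-133a-3p ranged from 304 to 9574 RPM (median 1309) at baseline and from 341 to 2474 RPM (median 1218) at week 1, so that the medians were close and the highest baseline sample lay far above every week 1 sample (-0.43 ± 0.16, FDR = 0.0487). It was called in 4 of 13 alternative settings, and was not called without rat 3, 5, 6, 21, 23, 25 or 29. MiR-1-3p had a median of 22.7 RPM at baseline and 19.2 RPM at week 1 (-0.83 ± 0.25, FDR = 0.0117), and was not called without rat 29 or in 6 of the 13 alternative settings, among them both fits without the block, filterByExpr and limma-voom. MiR-206-3p, specific to skeletal muscle, was at 0 in at least 1 sample of each time point and was not called (-0.29 ± 0.42, FDR = 0.68).

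Of the 14 tested mesenchymal miRNAs, 4 were downregulated and 1 was upregulated (median -0.28), beside 11.3% and 7.71% of all tested miRNAs. Next to miR-199a-3p, which is also on the platelet list, these were miR-196a-5p from a HOX gene cluster (-0.77 ± 0.17, FDR = 0.000383), miR-10b-5p, likewise from a HOX cluster (-0.55 ± 0.15, FDR = 0.00366), and miR-214-3p, an inhibitor of osteoblast activity (-0.54 ± 0.14, FDR = 0.00224). MiR-29c-3p was higher (0.36 ± 0.13, FDR = 0.0374). It was not called in 5 of 13 alternative settings, or without rat 3, 6, 7, 17, 21, 23 or 29. The mesenchymal list had 1 to 8 lower and 0 to 1 higher in the other settings. With any 1 rat left out it had 4 to 6 lower and 0 to 1 higher. None of the 14 tested miRNAs known to regulate osteogenesis was called by edgeR, 1 had an unadjusted p under 0.05, and DESeq2 and limma-voom each called 1 higher. Their median log2 fold change was -0.06. Among them, miR-21-5p had a median of 43091 RPM at baseline and 43027 RPM at week 1 (-0.06 ± 0.11, FDR = 0.736), and miR-26a-5p of 15150.4 and 16011 RPM (0.19 ± 0.11, FDR = 0.233). Counts on this list were 0 to 1 higher with any rat left out and 0 to 5 lower in the other settings.

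The Dlk1-Dio3 miRNAs, an imprinted group expressed from the maternal allele and active in embryonic, muscle and stromal tissue, leaned downward at low levels. Of 66 listed, 40 were tested, and 38 of them had a negative log2 fold change (median of the 40 -0.55). Of these 40, 12 were downregulated, beside 11.3% of all tested miRNAs, and none was upregulated. All 66 together had a median of 661 RPM at baseline and 548 RPM at week 1. No read was found for 2 of the 66 in any of the 24 samples. MiR-411-5p went from 9.12 to 96.4 RPM (median 27.5) to between 3.76 and 25.8 RPM (median 12.8) and was lower in 10 rats (-1.08 ± 0.25, FDR = 0.000464). MiR-379-5p was the largest decrease of all tested miRNAs (-2.19 ± 0.59, FDR = 0.004), but at a median of 3.98 RPM at baseline and 0 RPM at week 1 this size depends on few reads. The number called was not stable. It was 2 without rat 25, 4 without rat 5, 5 without rat 3, 6 without rat 16, 7 without rats 23, 26 or 29, 1 without the block and 0 with the red blood cell ratio as a covariate, where 28 of 40 were negative.

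The miR-125/99/100 group had 4 downregulated members of 11 tested, beside 11.3% of all tested, and all 11 log2 fold changes were negative (median -0.42). These were miR-125b-5p, an inhibitor of osteoblast differentiation (median 1545 and 855 RPM, -0.75 ± 0.16, FDR = 0.000205), miR-125b-1-3p, miR-125a-5p (-0.42 ± 0.14, FDR = 0.0232) and miR-99b-5p (-0.56 ± 0.15, FDR = 0.004). Without rat 5 or rat 29, 2 were called, and none with the red blood cell ratio as a covariate. Of 13 alternative settings, 6 lost the call of miR-125b-5p, among them DESeq2 and filterByExpr, and 8 that of miR-125a-5p. For miR-99b-5p it was lost in 4 and for miR-125b-1-3p in 2. Of the 6 tested miRNAs of the miR-148 and miR-152 family, 2 were downregulated, beside 11.3% of all tested. They were both arms of miR-152, with -0.59 ± 0.14 for miR-152-3p (FDR = 0.000912). The count was 1 with rat 7, 17, 23, 25, 26 or 29 left out and 0 with the red blood cell ratio as a covariate. No member of the let-7 family (9 tested), the miR-181 family (7), the epithelial list (13) or the vascular list (6) was called in the edgeR fit described above, and 3, 3, 1 and 1 of them had an unadjusted p under 0.05. Calls appeared in other fits. DESeq2, limma-voom, the version 4 method of edgeR and filterByExpr each called 1 let-7 member higher, while 2 were lower without rat 3 or rat 25 and 3 without rat 26. Scaled by UniSp2, 6 let-7, 3 miR-181, 7 epithelial and 2 vascular miRNAs were lower, and by library size 1, 2, 1 and 0. DESeq2 called 1 miR-181 member lower, and neither DESeq2 nor limma-voom called any of the epithelial and vascular lists. Of 10 brain miRNAs, miR-128-3p alone was upregulated (0.35 ± 0.12, FDR = 0.0273), a share near the 7.71% of all tested. None of the list was upregulated without rat 6, 7, 17, 23 or 25, by library size, on 48 samples or with the red blood cell ratio as a covariate. With UniSp2, 2 brain miRNAs were lower. The medians of these 5 lists were -0.26, -0.04, -0.14, 0.10 and 0.27, and the latter pair turned to -0.22 and -0.04 when scaled by UniSp2.

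Seeds cut across these groups. The seed AGCAGCA printed above is shared by miR-322-5p and miR-195-5p, which fell (-0.78 and -0.59), and by miR-16-5p, miR-15b-5p and miR-497-5p, which were not called (0.19, -0.08 and -0.12). MiR-16-5p alone took a mean of 9.89% of the reads at baseline and 10.4% at week 1, and the summed level of the 7 miR-15/16 seed miRNAs was 108738 RPM in the median at baseline and 115333 RPM at week 1. MiR-15a-5p, from another hairpin of this family and without a RefSeq match, was upregulated (0.36 ± 0.12, FDR = 0.023). The seed CCCUGAG of miR-351-5p, miR-125a-5p and miR-125b-5p belonged to 3 miRNAs matched to chromosomes X, 1 and 11, and all 3 fell. The seed AUUGCAC of miR-25-3p and miR-92a-3p, which rose, is also that of miR-92b-3p, which was not called (-0.27). Among the 68 called miRNAs with a RefSeq sequence, no seed had both an upregulated and a downregulated one. MiR-15a-5p had no match but is a listed member of the miR-15/16 seed family. That family held 1 upregulated and 3 downregulated miRNAs of 7 tested, beside 7.71% and 11.3% of all tested. Of these 3, miR-503-5p has the seed AGCAGCG, so 2 downregulated miRNAs were matched to AGCAGCA. RefSeq sequences were at hand for 24 of the 32 higher and 44 of the 47 lower miRNAs, with miR-486 and both arms of miR-802 among those without. Over these, the median GC content was 42.8% for the higher, 50% for the lower and 47.6% for the miRNAs not called, without a test. The 5′ base was U in 29.2%, 56.8% and 35.4% of them.

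The 5p and 3p arms of a hairpin had the same direction where both were called, but not in every hairpin. Of 77 hairpins with both arms at a mean of at least 10 RPM, 11 had both arms called, always in the same direction. Over all tested miRNAs, 19.0% were called. Called or not, the arms had the same sign in 54 of the 77 hairpins. Both arms rose for miR-122, miR-144 and miR-802, and both fell for miR-140, miR-152, miR-322, miR-351, miR-450b, miR-455, miR-503 and miR-542. Of those that fell, miR-322, miR-351, miR-450b, miR-503 and miR-542 lie in the same miR-322 cluster and are not separate cases. In 24 other hairpins 1 arm was called, and in 18 of these the partner had the same sign. The median distance between the log2 fold changes of the arms was 0.25. For miR-93, the abundant 5p arm was higher in all rats while miR-93-3p, at 135 RPM, had a log2 fold change of 0.00. For miR-16, the rare arm miR-16-3p was called and the abundant arm was not.

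Individual rats differed in how far they moved. Over the 24 miRNAs with the 12 largest decreases and the 12 largest increases at a mean of at least 10 RPM and in 10 or more rats, the size of a change spread widely between animals. MiR-322-3p fell in each rat, by 2.50 on the log2 scale in rat 23 and by 0.14 in rat 3. MiR-451-5p rose by 1.06 in rat 7 and by 1.03 in rat 29, and fell by 0.65 in rat 21, the rat whose red blood cell ratio was lower at week 1, and by 0.34 in rat 3, whose ratio was higher.

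**Figure D5:**
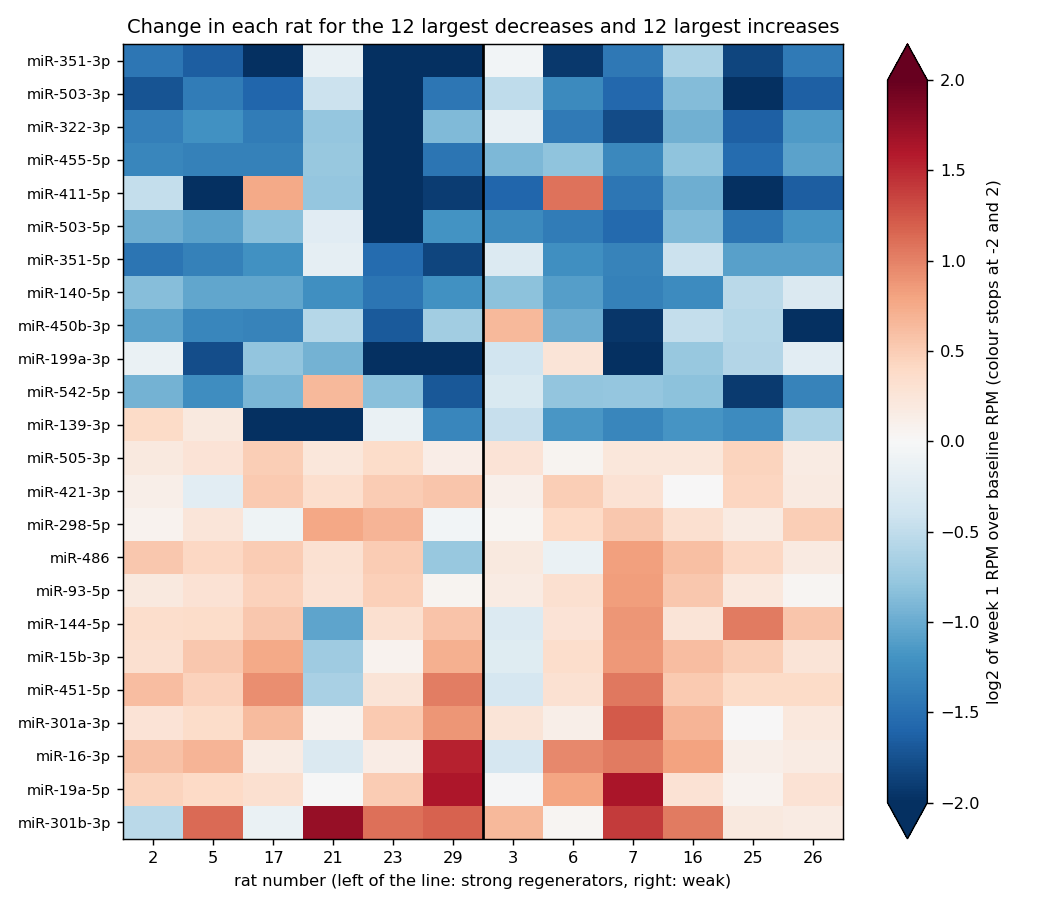
Log2 ratio of week 1 to baseline RPM (colour, stopping at -2 and 2) for the 24 named miRNAs (rows) in each of the 12 rats (columns, strong regenerators left of the line). The upper rows are blue in nearly all rats, with exceptions for miR-411-5p, miR-450b-3p, miR-199a-3p, miR-542-5p and miR-139-3p, and the lower rows are mostly pale red, with 5 values below 0 each in rats 21 and 3 and at most 2 in any other rat.

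Whether the week 1 change differed between strong and weak regenerators was tested as an interaction in a separate edgeR fit with the same normalization and block. The paper lists rats with a non-augmented scaffold among the strong regenerators only, and more rats with the plasmid scaffold among the weak ones. Treatment and regeneration group therefore cannot be told apart here. No miRNA of 620 tested passed an FDR of 0.05 (0%), 25 had an unadjusted p under 0.05, and the smallest FDR was 0.102. On simulated counts this fit recovered 39.8% of the tested differences of 1 on the log2 scale, so differences of that size can be missed. Only 123 of the 200 simulated differences were tested there, whereas all 620 miRNAs were tested in the data. The recovered share therefore does not carry over to the rarer of the 620 miRNAs. The count was 0 as well with library size scaling, with filterByExpr and without the block (27 with an unadjusted p under 0.05). It reached 1 without rat 2 or rat 3 and 3 without rat 7. The filter had removed none of the 620 miRNAs, so leaving it out repeated the same fit. The lowest FDR belonged to let-7c-5p and miR-125b-5p, which were chosen here after their values were seen. Strong regenerators had a log2 change of let-7c-5p between -1.82 and -0.06 with a median of -0.86, and weak regenerators one between -0.86 and 0.91 with a median of 0.07, a fitted difference of -1.03 ± 0.28. For miR-125b-5p the change lay between -2.39 and 0.11 (median -1.74) in the strong group, between -2.33 and 0.62 (median 0.07) in the weak group, and differed by -1.03 ± 0.29 in the fit. In both, the groups overlapped. Of the leading miRNAs of the time comparison, miR-322-3p had a median log2 change of -1.29 in strong and -1.28 in weak regenerators, miR-140-3p one of -0.88 and -0.81, and miR-451-5p one of 0.54 and 0.39.

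Levels at week 4 in the same rats are given beside these values without a test, because they would be read against the same baseline samples. MiR-322-3p had a mean of 2970.4 ± 732 RPM at baseline, 1232 ± 299 RPM at week 1 and 1086 ± 253 RPM at week 4 (SD, n = 12). MiR-140-3p had 95441 ± 15080.3, 56048 ± 8459.6 and 51492 ± 11268 RPM, and miR-455-5p 962 ± 227, 404 ± 92.3 and 361 ± 114 RPM. These low means of week 4 lay within the SD of week 1. For miR-802-5p the means were 318 ± 168, 701 ± 521 and 449 ± 182 RPM, for miR-150-5p 23393 ± 11633, 15547 ± 6936 and 21871 ± 9764 RPM, and for miR-146a-5p 5741 ± 2526, 3860.3 ± 2003 and 5787 ± 2554 RPM, with the week 4 mean between the others or next to that of baseline.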

How the data were processed

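The authors removed adapters and low-quality reads (cutadapt 3.3), mapped the rest to the rat genome and to miRBase (Bowtie 1.3.0, miRDeep2) and checked quality with FastQC 0.11.9 and MultiQC 1.10. The deposited values are raw counts of 645 miRNAs and 3 spike-ins, not normalized. The submitters' build field and the study's methods name different genomes, which does not touch the miRNA names used here. Baseline samples, whose regeneration group the labels leave unknown, were assigned by animal. RPM were computed over the rows of miRNAs. Reads may be PCR copies of 1 molecule, so depth speaks for counting error alone, and total counts per sample ran from 421685 to 1586398. With 12 rats the smallest p of the exact sign-flip test was 0.000488.

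Week 1 was compared with baseline on the counts with edgeR 4.0.16 in R 4.3.3 (quasi-likelihood method of version 3, TMM, rat as a block, independent filter on mean abundance after the rule of DESeq2, here 1.99 RPM, Benjamini-Hochberg, two-sided). Samples of 1 number come from the same rat. Their deviations from the group means had a mean correlation of 0.23 (range -0.06 to 0.57, over 0.1 in 9 of 12 rats), against -0.02 between different rats. Replicates differed by more than counting (chi-square per degree of freedom 23.0 to 491 over 132 pairs). The fits were tested on simulated counts. For week 1 against baseline, 59.1% of the tested changes of 1 on the log2 scale were recovered, and 32.6% of those of 0.5. Of the simulated calls, 1.19% were false. The interaction fit recovered 39.8% of the tested differences of 1 on the log2 scale, with 123 of 200 simulated differences tested. Alternatives were RLE, library size and UniSp2 scaling, TMM without the red blood cell list, other filters, no block, all 48 samples, DESeq2 1.42.0, limma-voom (limma 3.58.1), the version 4 method, the red blood cell ratio as a covariate, a 2-fold threshold and each rat left out. Tables and plots used Python 3.11.15, numpy 2.4.6, pandas 2.3.3, scipy 1.17.1 and matplotlib 3.10.9. Named are the 12 largest increases and the 12 largest decreases with an FDR under 0.05, a mean of at least 10 RPM and 10 or more rats changing the same way, and members of the 20 lists. Members and lists were chosen with earlier results of these data known. Sequences and clusters (hairpins within 50 kb) are from RefSeq, build GRCr8.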

Additional observations from a re-analysis of the deposited data

How the results depend on the processing

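Of the 79 miRNAs called (32 higher, 47 lower), a fit without the pairing by rat (no replicate block) on the same 24 samples called 43 (21 higher, 22 lower), 42 of them shared with the blocked fit. On all 48 samples 50 were called without the block (21 lower) and 49 with it (25 lower). Scaling by UniSp2 gave 134 (4 higher, 130 lower) and library size 10 higher. The red blood cell ratio as a covariate gave 34 (14 higher, 20 lower), filterByExpr 30 lower, and a 2-fold threshold 14 (3 higher, 11 lower). With 1 rat left out the counts ran from 47 to 82 in all, 8 to 33 higher and 33 to 53 lower, and 0 to 3 for strong against weak regenerators. Under each setting and without each rat, miR-122-3p and miR-802-5p stayed higher, and both arms of miR-140, miR-322, miR-351, miR-455 and miR-503 and miR-542-3p lower, apart from the 2-fold threshold, which was not applied to single miRNAs. With UniSp2 the log2 fold change of miR-92a-3p was -0.0199. The red blood cell ratio changed by 0.18 with miR-16-5p in its place and by 0.52 with 24 labels permuted (permutation test, p = 0.0581), and by 0.44 to 0.67 with 1 rat left out. UniSp2 reads changed by 0.20 with labels permuted (permutation test, p = 0.134) and by 0.13 to 0.24 without 1 rat. After thinning to equal depth, the number of miRNAs with a read differed by -12.25 and that with more than 10 reads by -7.0 (exact permutation tests, p = 0.0195 and 0.0254). The difference in miRNAs with more than 10 reads ran from -21.4 to -9.18 with 1 rat left out. Among hairpins with both arms at 100 RPM or more, 7 had both arms called. The cause of these shifts was not tested.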
